A study of Equus caballus with 11 samples.

Results

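Of 68147 CpG sites read at least 10 times in each of 11 horse tissue libraries, 1118 (1.64%) were less methylated in heart than in lung and in liver, while lung and liver stayed close to each other. These 1118 sites were chosen from the measured methylation levels themselves. A site was kept when the heart mean lay 20 or more percentage points below both the lung mean and the liver mean, when the lung and liver means differed by under 15 points, and when the highest heart library still lay below the lowest lung or liver library. The difference between heart and the other tissues at these sites is therefore the criterion that selected them, and it is described below without a test. Left out in turn, no library other than liver of horse 2 moved the count by more than 1.5 times. Without that shallow library 113565 sites had enough reads and 1939 met the criteria, 1154 of which were among the 68147. Without horse 2 altogether 2333 did.

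The levels came from reduced representation bisulfite sequencing (RRBS). Genomic DNA is cut at CCGG, and bisulfite then leaves methylated cytosines to be read as C and turns unmethylated ones into T. The tissue came from 4 healthy cold-blooded stallions aged 1 to 2 years. The groups were left ventricle of the heart (H, 4 libraries), caudal lobe of the right lung (L, 4 libraries) and right lobe of the liver (LR, 3 libraries, from horses 1, 2 and 4); no treatment is named for any group. Liver of horse 3 was not analysed here. Every tissue is a mixture of cell types, so a change in the share of a cell type and a change of methylation within a cell type cannot be told apart in these data.

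Methylation of cytosine in a CpG is copied to the new DNA strand at each cell division, and it is removed by failure of that copying or by oxidation of the methyl group. Most CpGs outside CpG islands are methylated in adult tissue. Stretches that lose methylation in a single tissue often lie at enhancers, the distal elements that switch genes on in that tissue, and they tend to be poor in CpGs. In heart, the muscle cells share the tissue with fibroblasts, endothelial cells and blood cells. RNA or protein markers of these cells are not part of the data, so the tissue labels were checked only through mitochondrial DNA, which heart muscle holds in abundance. Mitochondrial positions took 2.44% to 5.71% of the reads in the heart libraries, 0.141% to 0.842% in lung and 0.222% to 0.648% in liver, with no overlap between heart and the others.

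Depth on chromosomes 1 to 31 ran from 7313414 to 23755358 reads summed over listed positions in heart, from 8155920 to 22394586 in lung and from 3255257 to 25109840 in liver, the lowest being liver of horse 2. At the 1118 sites a library had 10 to 550 reads, with a median of 31, and 643 of the sites (57.5%) had under 15 reads in at least 1 library. A level of 50% read at 10 reads has a 95% exact binomial interval of 18.7% to 81.3%, and at 50 reads of 35.5% to 64.5%. These intervals cover counting error only, and any copies made by PCR that remain in the counts would be counted as separate reads.

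At the selected CpGs the heart was partly methylated, not unmethylated. The median of the tissue means was 47.0% in heart, 80.1% in lung and 80.5% in liver, against 81.9%, 82.1% and 82.1% over all 68147 sites. The middle 80% of the sites ran from 21.5% to 66.0% in heart, from 55.1% to 93.8% in lung and from 57.9% to 94.3% in liver. Heart was at or below 20% at 101 sites (9.03%), above 20% and up to 50% at 535 (47.9%) and above 50% at 482 (43.1%). It was at or below 10% at 31 sites and above 70% at 55.

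The mean over the sites hardly varied between libraries of a tissue. It was 44.3%, 45.7%, 46.2% and 44.5% in heart of horses 1 to 4. In lung it was 77.7%, 76.5%, 78.1% and 75.1%, and in liver 77.9%, 77.9% and 78.3% for horses 1, 2 and 4. The criterion on library ranges required every heart library to be low at every site.

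**Figure D1:**
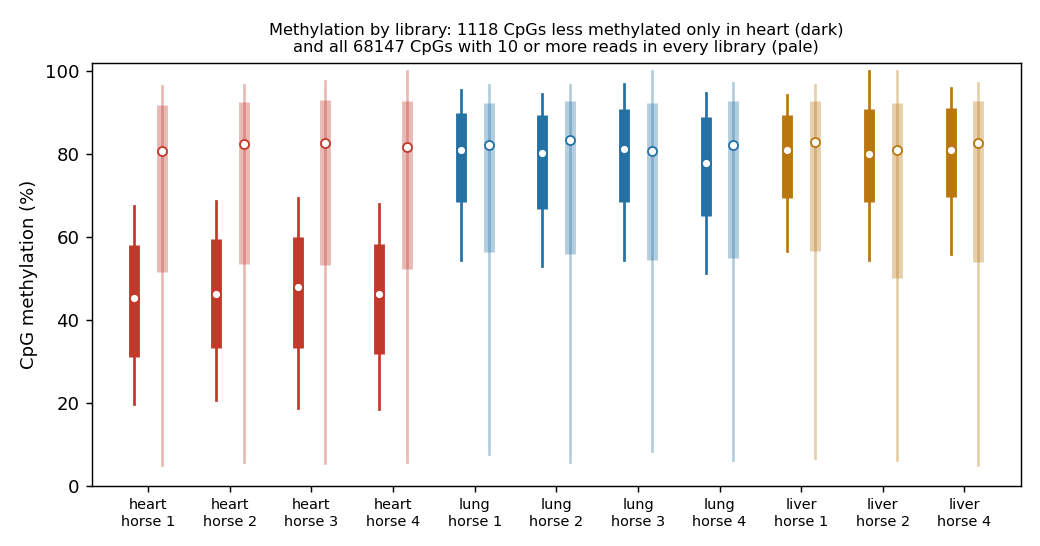
CpG methylation (y axis, percent) in each of the 11 libraries (x axis, tissue and horse) at the 1118 CpGs less methylated only in heart (dark) and at all 68147 CpGs with 10 or more reads in every library (pale); circles are medians over sites, thick bars the 25th to 75th percentile and thin lines the 10th to 90th percentile. The medians at the selected sites are 45.4%, 46.2%, 47.8% and 46.2% in the heart libraries, while the lung and liver libraries stay near the level of all sites.

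The gap between heart and the nearer of the other tissues had a median of 27.6 points and ran from 20.01 to 65.9 points. It was 20 to 25 points at 397 sites, 25 to 30 at 303, 30 to 40 at 288, 40 to 50 at 99 and 50 or more at 31. At the limit of the selection, the sites just inside had a gap of 20.0088 points (chr3:118510607), 20.0091 (chr3:29719048) and 20.0136 (chr7:24715957), while the sites just outside had 19.9736 (chr27:16742518), 19.9675 (chr17:77341334) and 19.9551 (chr23:42221266). For the distance between lung and liver, the largest value inside was 14.9461 points (chr15:11096706) and the nearest outside 15.074 (chr29:27934515). For the distance between the library ranges, the closest member had 0.169779 points (chr30:1784329), and at the nearest site outside the highest heart library equalled the lowest of the others (chr2:48821280). The limits thus cut through a continuous range of values.

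Expressed as a share, heart held a median of 59.1% of the mean level of lung and liver, and under 50% of it at 307 sites (27.5%), under 25% at 45 and under 10% at 3. The median share went from 69.4% where lung and liver averaged 90% or more to 25.9% where they averaged 20% to 40%. Where lung and liver averaged 90% or more (228 sites) the median heart level was 64.6%, where they averaged 80% to 90% (344 sites) 53.9%, where they averaged 60% to 80% (401 sites) 38.5%, where they averaged 40% to 60% (125 sites) 20.2%, and where they averaged 20% to 40% (20 sites) 9.23%. The median gap was similar across these classes, from 22.8 to 28.4 points, and a gap of 20 points takes up a larger part of a low level, so part of this trend is set by the selection. Of the 481 sites at 80% or more in both lung and liver, none was at or below 20% in heart and 391 were above 50%.

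**Figure D2:**
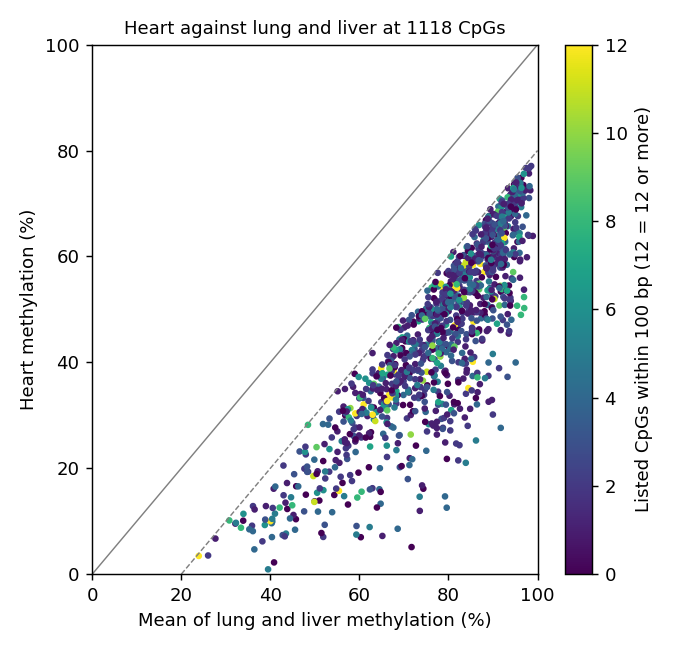
Heart methylation (y axis, percent) against the mean of lung and liver methylation (x axis, percent) at the 1118 CpGs; each point is a CpG, coloured by the number of listed CpGs within 100 bp, the solid line is equality and the dashed line a distance of 20 points. Points near the right edge lie mostly above 50% in heart, and the corner of high lung and liver with heart at or below 20% is empty.

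Lung and liver differed little at these sites, as the selection required. The median difference of lung minus liver was -1.18 points, with liver higher at 643 sites and lung higher at 475. The pairwise tests of the study's design were run on all sites and read at the 1118, where they repeat the criterion and serve as a description. In lung against heart, 697 sites were called lower in heart at an adjusted p under 0.01 and at least 25 points, beside 1.54% of all 116927 sites tested. In heart against liver, 737 were called lower in heart, beside 2.84% of 77277 sites. No selected site was called in lung against liver (moderated quasi-likelihood test with limma), where 3.82% of 73050 sites were called in either direction. The largest lung against liver difference was 20.9 points, under the 25 required, and 94 sites (8.41%) had an unadjusted p under 0.05, beside 19.4% of all sites tested, a share that the limit of 15 points between lung and liver holds down. edgeR also called 0 of them. With horse as a paired block, the moderated test called 0 sites in each comparison. edgeR with the block called 767 in lung against heart, beside 2484 of all 116927 sites lower in heart. In heart against liver it called 746, beside 2458 of all 77277. Without liver of horse 1, heart against liver called 347, beside 933 of all 77559 sites tested. Because the selection used the same values, nothing is read from these counts. Both heart comparisons called 549 sites (49.1%), lung against heart alone 148, heart against liver alone 188, and neither 233 (20.8%), the last with a median gap of 22.0 points and a median heart level of 57.9%. This split was made at the selected sites only, without the share over all sites tested, so nothing is read from it either.

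The spread between horses at these sites was set beside the spread that counting of reads gives. The median SD over heart libraries was 7.84 points, against 8.21 calculated from read counts. For lung these were 6.57 and 7.27 points, and for liver 6.22 and 7.43. At the 90th percentile over sites the heart SD was 13.8 points, against 10.4 from read counts. An SD taken over so few libraries has a median below the true spread and varies widely between sites. These pairs therefore do not tell whether the spread between horses was larger or smaller than counting gives. The condition that the ranges of libraries stay apart favours sites with a small spread. At heart levels of 30% to 60%, the median heart SD was 8.001 points at the selected sites and 9.22 at all sites of that level. Within each horse, lung exceeded heart by a median of 32.3, 29.6, 30.8 and 29.7 points in horses 1 to 4, and liver exceeded heart by 33.1, 30.5 and 33.3 points in horses 1, 2 and 4. The lowest heart library came from horses 1 to 4 at 287, 232, 291 and 308 sites, so the lowest value moved between horses from site to site.

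To see the same difference in animals that had not served in the choice, the criteria were applied to 3 horses and the values of the 4th were read at the resulting sites. With horse 1 left out, 1167 of the 68147 sites were chosen, and in horse 1 lung exceeded heart there by a median of 28.6 points and liver exceeded heart by 30.0, against 29.1 and 31.1 in the horses used. With horse 2 left out, 1341 sites gave 24.9 and 27.1 points in horse 2, against 29.9 and 31.4. With horse 3 left out, 1329 sites gave a lung minus heart median of 23.8 points, against 29.2. With horse 4 left out, 1405 sites gave 21.9 and 27.0 points, against 29.4 and 30.9. Heart was the lower tissue at 89.0% to 97.8% of the chosen sites in the horse left out, against 44.9% to 54.1% of all 68147 sites. Over all 68147 sites the corresponding medians were 0 to 1.02 points. The medians were smaller in the horse left out than in the horses used in every case, by 0.457 to 7.43 points. Horses serve in each other's choice, so these values are not independent of one another and were not tested.

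**Figure D3:**
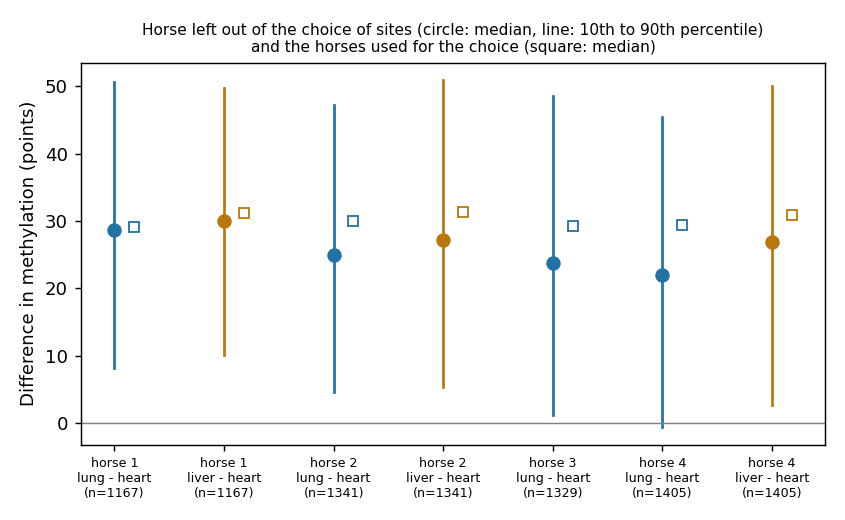
Difference of lung or liver minus heart (y axis, percentage points) in a horse left out of the choice of sites (x axis, horse, difference and number of sites); circles are medians over sites, lines the 10th to 90th percentile, and squares the medians of the horses used for the choice. The circles lie between 21.9 and 30.0 points, below the squares in each case.

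Sites less methylated only in heart were more frequent than sites more methylated only in heart. The same criteria turned round gave 331 sites more methylated in heart alone, 565 less and 242 more methylated in lung alone, and 1657 less and 779 more methylated in liver alone. Many CpGs are too highly methylated to rise by 20 points, so the counts were also set against the sites with room for each change. Heart loss then took 2.27% of 49241 sites and heart gain 1.57% of 21038, lung loss 1.195% and lung gain 1.21%, and liver loss 3.28% and liver gain 3.47%. Liver had 3 libraries and was held to fewer values by the condition on ranges. With horse 3 left out of every tissue, the counts were 1329 and 411 for heart, 729 and 329 for lung, and 1775 and 904 for liver. Heart lay between liver and lung in both directions.

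The selected sites lay away from dense groups of CpGs. The median number of other listed CpGs within 100 bp was 2, against 3 over all sites, and 3.58% of the selected sites had 10 or more such neighbours, against 12.6% of all sites and 11.8% of the sites with room for a loss. Of the sites with room, 2.57% were selected where 0 to 2 neighbours were listed, 2.62% at 3 to 5, 1.86% at 6 to 9, 0.729% at 10 to 14, 0.810% at 15 to 19 and 0.170% at 20 or more. Low CpG density was shared with the mirror groups, in which 1.15% (liver loss) to 6.29% (liver gain) had 10 or more neighbours. The number of listed CpGs depends on the cut sites and the depth of RRBS and is only a stand-in for CpG density in the genome.

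All 31 chromosomes held selected sites, and their share of the sites read ran from 0.905% on chromosome 12 and 0.939% on chromosome 26 to 2.35% on chromosome 30 and 2.60% on chromosome 31, the last resting on 22 sites. The first and last 5 Mb of the chromosomes held 24.8% of the selected sites and 24.4% of all sites. Read depth was not a criterion among the sites that passed the read limit, and it was tested. Levels at low depth vary more from counting, so depth is not fully independent of the selection. The log2 ratio of the median depth at the selected sites to that at all sites was -0.02 ± 0.02 in heart (SD, n = 4) and -0.04 ± 0.04 in the other libraries (n = 7). The difference of 0.03 was not significant (exact 2-sided permutation test, p = 0.164, smallest possible p 0.00606).

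Many of the sites stood alone and some formed short clusters. Taking neighbouring selected sites up to 200 bp apart as a run, 644 were single, 282 lay in 141 pairs, and 192 (17.2%) lay in 54 clusters of 3 to 6 CpGs. The clusters spanned 12 to 217 bp, with a median of 47.5 bp, which is under the read length of 75 bases, so CpGs of a cluster are often read on the same molecules. In 42 of the 54 clusters every CpG with enough reads from the first to the last selected CpG was selected. Both ends are selected by definition, and CpGs just outside were not counted. Such a CpG was assessed and not selected at chr8:20633435, 3 bp before a cluster. Of the 832 selected sites with another assessed CpG within 100 bp, 466 (56.0%) had a further selected site there. Neighbours up to 25 bp apart (192 pairs) differed by a median of 5.15 points in heart and 5.87 points in the mean of lung and liver.

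The lower heart level reached beyond the selected CpGs. In other CpGs that passed the read limit, the mean of lung and liver exceeded heart by 20.8 points at 1 to 10 bp from the nearest selected site, by 18.7 at 11 to 25 bp, by 15.2 at 26 to 75 bp, by 8.83 at 76 to 150 bp (17 CpGs), by 6.97 at 151 to 300 bp and by 1.85 at 301 to 1000 bp. From 3001 to 50000 bp the difference was -0.0230 to -0.365 points. CpGs within a read length share reads with the selected site. More CpGs further out had too few reads in some library to be assessed but were listed in at least 2 libraries of each tissue. Among them the difference was 18.3 points at 76 to 150 bp (328 CpGs), 13.3 at 151 to 300 bp (603 CpGs), 5.604 at 301 to 1000 bp and 2.56 at 1001 to 3000 bp, against 0.936 over all 731233 such CpGs. At 76 to 300 bp, beyond the read length, the heart libraries had means of 58.8% to 61.3%, the lung libraries 73.6% to 75.1% and the liver libraries 74.7% to 76.7%, without overlap between heart and the others. At 301 to 1000 bp the heart libraries had 67.4% to 70.3% and the others 70.6% to 74.9%. These CpGs were not used by the selection, yet they lie next to sites chosen on the same libraries.

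**Figure D4:**
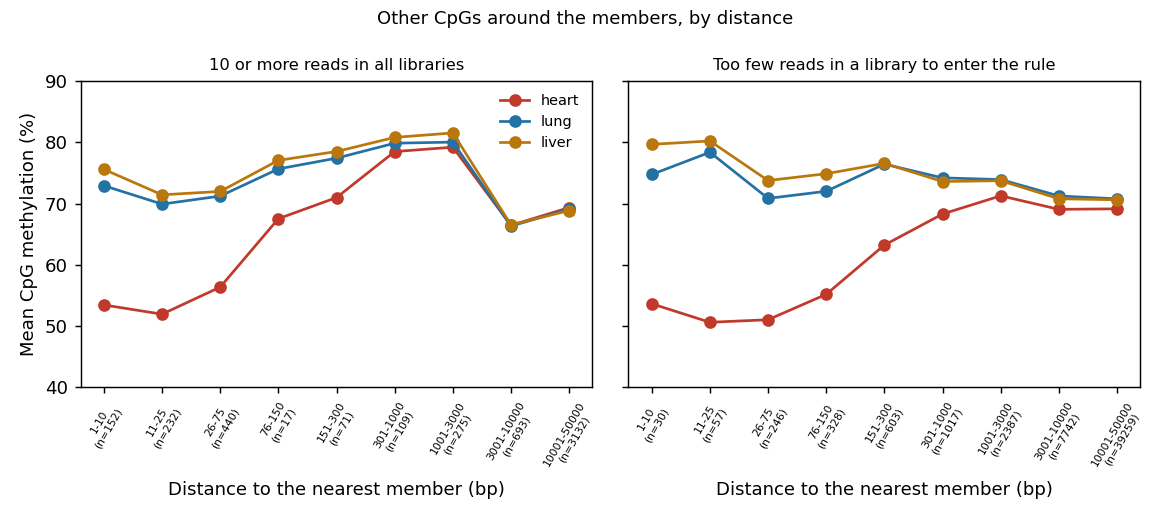
Mean CpG methylation (y axis, percent) in heart, lung and liver by distance to the nearest selected CpG (x axis, bp, with the number of CpGs), for other CpGs with 10 or more reads in every library (left) and for CpGs with too few reads in a library to be assessed (right); points are means over CpGs. Heart lies 20.8 points (left) and 23.6 points (right) below the mean of lung and liver at 1 to 10 bp and is within 1.55 points of it at 10001 to 50000 bp.

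Strand gave a further view of the same sites, since each strand is a separate molecule in bisulfite data. Only 39 of the selected sites (3.49%) had 5 or more reads on both strands in all libraries, against 3959 (5.81%) of all 68147 sites. On 1 strand only, 888 of the selected sites (79.4%) were listed, beside 52353 of all sites. A strand with under 5 reads in a library is not listed, so these sites may hold a few reads on the other strand. At the 39, the median gap to the nearer tissue was 25.2 points on the forward strand and 27.4 on the reverse strand. Heart was the lowest tissue at all 39 on each strand, and the gap was 20 points or more on both at 26. The combined value of both strands was part of the selection.

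Regions were named by size, taking the 15 clusters with the most CpGs, and are called here by letters A to O with positions in EquCab3.0 as the files give them (the forward-strand cytosine). No gene model of that build was used, so they are given without genes. Values are means over the CpGs of the cluster in each library, and the tissue mean carries the SD over libraries.

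Cluster A, chr16:1778684-1778891, held 6 CpGs, the largest number. Heart of horses 1 to 4 had 13.2%, 8.25%, 15.04% and 17.8%. Lung had 64.6%, 69.3%, 82.3% and 76.02%, and liver of horses 1, 2 and 4 had 66.6%, 62.4% and 75.4%. The lowest of the other libraries lay 44.6 points above the highest heart library, and the tissue means were 13.6% ± 4.02 (H, n = 4), 73.1% ± 7.73 (L, n = 4) and 68.1% ± 6.62 (LR, n = 3). The CpG at 1778853 within it, at 12.6% in heart, 80.7% in lung and 78.5% in liver, had the largest gap of all selected sites. The CpG at 1778868 had 11.8%, 55.3% and 46.1%, the lowest lung and liver levels of the cluster.

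Clusters G, J and K were also low in heart, but with lung and liver at intermediate levels. In cluster K, chr28:34122645-34122699 (4 CpGs), heart had 8.82%, 10.4%, 10% and 7.5%, lung 50%, 60%, 52.1% and 47.7%, and liver 46.9%, 58.4% and 57.5%. In cluster J, chr11:1921294-1921361 (4 CpGs), heart had 13.8%, 13.0%, 13.0% and 18.1%, lung 61.6%, 59.6%, 64.6% and 42.8%, and liver 52.3%, 68.2% and 56.1%. Horse 4 was the highest of the heart libraries and the lowest of the lung libraries of J, and the ranges still stayed apart.

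Cluster G, chr8:20633438-20633494, was the most deeply read of the named clusters, with 140 to 589 reads summed over its 5 CpGs in each library. Heart had 7.80%, 16.5%, 13.8% and 12.8%, lung 37.2%, 38.7%, 42.6% and 43.8%, and liver 42.3%, 52.9% and 41.2%. CpGs 17.3 and 18.8 kb further along, looked up after their values were seen, went the other way. At chr8:20650771-20651128 (2 CpGs) heart had 50.8% ± 3.99 (n = 4), lung 8.76% ± 1.86 (n = 4) and liver 13.6% ± 3.70 (n = 3). At chr8:20652285-20652393 (3 CpGs) heart had 66.8% ± 10.2, lung 15.1% ± 4.72 and liver 31.1% ± 6.14. At chr8:20602621-20602652, 30.8 kb before the cluster, 3 CpGs were low in every tissue, with 9.44% in heart, 8.11% in lung and 4.85% in liver. At chr8:20669739, 36.2 kb further along, a single CpG had 65.2% in heart, 47.3% in lung and 16.9% in liver. Of the 12 other assessed CpGs within 50 kb of the cluster, heart exceeded both lung and liver by 20 points or more at 5. None of the other 14 named clusters had an assessed CpG within 50 kb at which heart exceeded both other tissues by 20 points. They had from 1 (B) to 34 (I) other assessed CpGs there, so some could hardly show such a CpG.

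Clusters B, C and D had high means in lung and liver and intermediate means in heart. In cluster B, chr25:4696964-4697157 (5 CpGs), heart had 51.9%, 42.4%, 38.3% and 46.7%, lung 95.03%, 92.1%, 92.3% and 89.0%, and liver 94.8%, 95.9% and 91.4%. Cluster C, chr16:34084151-34084209 (5 CpGs), had 55.6% ± 3.66 in heart, 92.2% ± 2.01 in lung and 90.6% ± 1.72 in liver. Cluster D, chr5:3765611-3765672 (5 CpGs), had 52.4% ± 4.999, 86.9% ± 5.49 and 87.8% ± 2.85. The lowest lung or liver library lay 37.1 points above the highest heart library in B, 28.9 points in C and 23.0 points in D.

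Heart libraries were tightly grouped in cluster I and spread in clusters F and L. In cluster I, chr7:312511-312560 (5 selected of 7 assessed CpGs), heart had 46.4%, 47.9%, 48.7% and 46.8%, while lung ran from 65.7% to 77.5% and liver from 73.7% to 84.8%. In cluster F, chr5:41642986-41643015 (5 of 7), heart had 59.3%, 31.4%, 63.2% and 65%, so that horse 2 stood 27.9 points below the other heart libraries. Lung and liver of horse 2 were also the lowest of their tissue in F, at 78.2% and 89.2%, by 1.81 and 3.89 points. In cluster L, chr3:23518016-23518033 (4 of 5), heart had 25.9%, 46.6%, 15.9% and 36.5%, a range of 30.6 points, against lung of 62.7% to 84.6% and liver of 72.5% to 82.6%. Horse 3 was lowest in heart and highest in lung there.

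The other named clusters had intermediate heart levels. Cluster E, chr3:6351960-6352101 (5 CpGs), had 46.9% ± 4.69 in heart, 81.5% ± 4.44 in lung and 78.8% ± 8.75 in liver. Cluster H, chr1:77204077-77204125 (5 CpGs), had 44.8% ± 8.30, 72.4% ± 5.32 and 77.9% ± 4.98. Cluster M, chr8:70146781-70146997 (4 of 5 assessed CpGs), had 22.6% ± 4.91, 66.7% ± 6.01 and 61.3% ± 13.1, with liver of horse 4 at 47.8%. Cluster N, chr1:7582381-7582430 (4 CpGs), had 41.2% ± 6.12, 79.4% ± 9.22 and 80.6% ± 1.69. Cluster O, chr28:36625982-36626040 (4 of 5), had 45.4% ± 5.51, 77.9% ± 4.69 and 80.8% ± 4.43. Over all 54 clusters the heart mean ran from 7.66% to 66.8%, with a median of 44.8%, and the named ones, chosen by number of CpGs, ran from 9.18% to 55.6%.

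**Figure D5:**
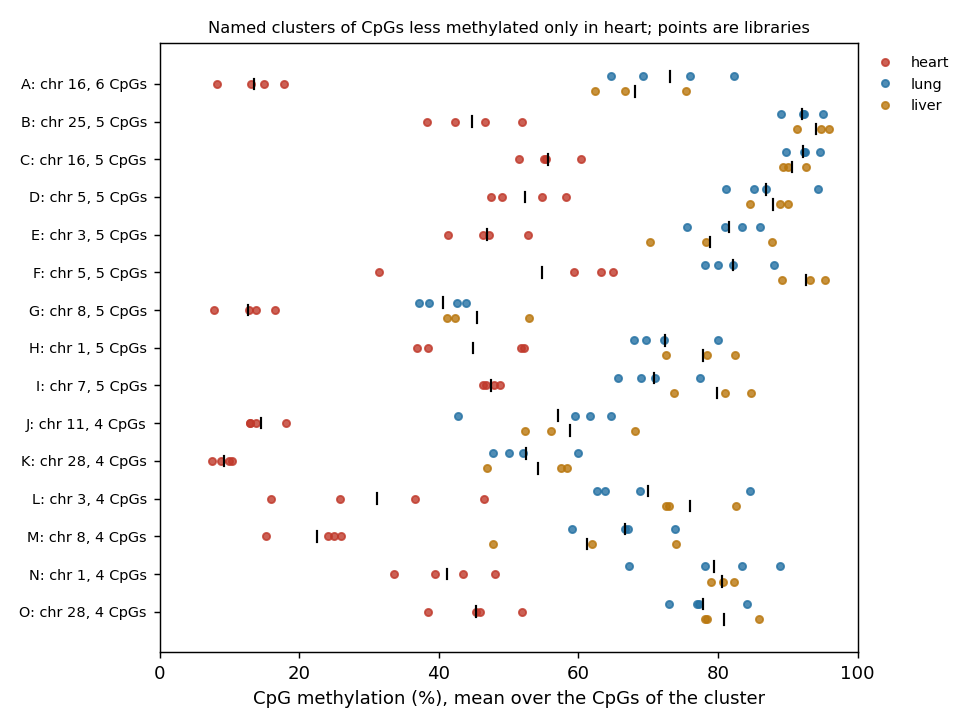
CpG methylation (x axis, percent, mean over the selected CpGs of a cluster) in each heart, lung and liver library at the 15 named clusters (y axis, letter, chromosome and number of CpGs); points are libraries and black ticks tissue means. In every cluster the heart libraries lie below the lung and liver libraries, with heart means from 9.18% in K to 55.6% in C.

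Outside these clusters, the largest gap was at chr18:39917289, a CpG with no other listed CpG within 100 bp. Heart of horses 1 to 4 had 9.80%, 0%, 0% and 10.7%, lung 72.7%, 68.6%, 60% and 73.7%, and liver 72.3%, 66.7% and 85%. The 2 heart libraries at 0 had 34 and 23 reads, which allow levels of up to 8.82% and 13.0% for counting error only. Liver of horse 2 rested on 12 reads. The tissue means were 5.13% ± 5.93 (n = 4), 68.7% ± 6.24 (n = 4) and 74.7% ± 9.39 (n = 3).

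Of the next 9 sites by gap, 3 lay within 16 bp of each other at chr29:31987548-31987563, a cluster of 3 CpGs with 24.6% ± 7.66 in heart, 91.0% ± 2.54 in lung and 83.5% ± 4.61 in liver. A pair on chromosome 20, at 43844103 and 43844139, had 32.9% and 32.6% in heart, 87.8% and 88.9% in lung and 91.8% and 89.1% in liver, on 26 to 79 reads per library. The CpG at chr3:20592426 had 21.5% ± 3.40 in heart, 82.5% ± 4.76 in lung and 81.9% ± 19.05 in liver, where horse 4 stood at 60% on 20 reads. The CpG at chr19:39360391 had 24.4% ± 11.5, 84.6% ± 18.9 and 80.3% ± 12.5, with lung of horse 4 at 56.5%. The CpG at chr9:65629717, with no listed neighbour, had 16.2% ± 3.65, 77.8% ± 14.9 and 70.9% ± 3.70. The CpG at chr3:117635665 had 14.6% ± 5.91, 69.1% ± 15.2 and 78.0% ± 5.04. Gaps over the 10 sites ran from 54.5 to 63.6 points.

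The lowest heart levels outside the regions above were found where lung and liver were themselves low. At chr3:67089039 heart had 0%, 0%, 4.17% and 4.76%, lung 41.4%, 28.1%, 21.4% and 56.0%, and liver 41.5%, 53.8% and 39.5%. The 2 libraries at 0 had 35 and 20 reads, allowing up to 8.57% and 15%. At chr20:43995849 heart had 3.70%, 3.57%, 4.44% and 2.44%, lung 22.6%, 41.7%, 25.9% and 8.82%, and liver 31.1%, 31.6% and 19.2%. Heart was tightly grouped at this site and lung was widely spread. At chr2:108414340 the tissue means were 3.45% ± 4.47, 24.3% ± 11.3 and 23.6% ± 9.53, and 23 other CpGs were listed within 100 bp, the only selected site with 20 or more. At chr15:10740577 they were 6.21% ± 4.45, 40.3% ± 7.85 and 36.2% ± 13.7. At chr23:52668661 they were 4.70% ± 0.865, 33.2% ± 5.34 and 39.6% ± 14.4, and this CpG belonged to a cluster of 4 at chr23:52668644-52668668 with 7.66% ± 1.94 in heart.

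Runs of selected sites that lay further apart were few. Joining sites up to 50 kb apart, 6 sites in 2 runs fell in chr23:52658104-52668668, with 15.7% in heart, 48.6% in lung and 49.8% in liver over 6 of the 7 CpGs assessed there. In chr29:31987548-31998468, 5 of 6 assessed CpGs were selected, with 30.5%, 83.6% and 76.8%. In chr7:3511119-3532592, 5 of 13 were selected, with 30.3%, 67.2% and 69.6%. These means are over the selected CpGs.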

How the data were processed

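The authors mapped quality-filtered single-end RRBS reads to EquCab3.0. FastQC and BSMAP appear in the submitters' processing notes without versions. Per CpG cytosine and strand, the deposited values are coverage, a read count of 5 or more, and the percent of reads holding C or T. Coverage multiplied by the percent of C gave whole methylated reads at 99.8% or more of positions, within 0.05 points. Strands were combined, and library levels were averaged per tissue without weights. Liver of horse 2, the shallowest library, limits which sites are assessed.

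The members, lists and tests were chosen with earlier results of these data known. Named regions are the 15 clusters with most CpGs (ties by gap), 10 further sites by gap and 5 by lowest heart level. Pairwise tests fitted logistic regression to read counts at all sites with 10 reads in each library of both tissues, with dispersion moderated by limma 3.58.1 and Benjamini-Hochberg adjustment. Alternatives used edgeR 4.0.16 and horse as a block. The labels name the horse of each library, so libraries are paired by horse. Deviations from the tissue mean correlated at 0.0512 to 0.251 for libraries of the same horse and at -0.146 to 0.0595 for different horses. The ranges overlapped in heart against liver, and centring on the tissue mean itself lowers the correlations between different horses. The moderated test without a block was checked on simulated libraries that held no horse effect. The check did not cover the fits with horse as a block or edgeR. Python 3.11.15 and R 4.3.3 were used. Gene models of another horse assembly were not used, so genes and sequences were not analysed here.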

Additional observations from a re-analysis of the deposited data

Results flagged for a closer look

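In groups of 4 libraries, 4 of 64 groups tested (6.25%) had a library far from the other 3 by Dixon's criterion. Most groups were levels of regions chosen on these same values, and some regions share reads, so no chance rate is set beside this share. Heart of horse 2 stood at 31.4% in cluster F, chr5:41642986-41643015, where the other heart libraries had 59.3% to 65%. Heart of horse 4 stood at 18.1% in cluster J, chr11:1921294-1921361, against 13.0% to 13.8%. Heart of horse 3 stood at 15.3% in cluster M, chr8:70146781-70146997, against 24.2% to 25.9%. Lung of horse 4 stood at 56.5% at chr19:39360391, against 92.3% to 96.9%. The ranges of heart and the other tissues stayed apart in each case, as the selection required.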

How the results depend on the processing

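The number of sites less methylated only in heart depended on the limits chosen. Against 1118, it was 475 with 15 reads in all libraries and 189 with 20, from 28466 and 13624 sites, and 721 and 418 with gaps of 25 and 30 points. It was 929 to 1466 when the limits on lung and liver, the weighting, the strands or the library ranges were changed. Leaving out 1 library gave 1096 to 1939, the highest without liver of horse 2, when 113565 sites had enough reads. On the 68147 sites themselves, a setting added after the data were seen, that library's loss gave 1154 and all libraries 1095 to 1307. Without horse 2 there were 2333, and without another horse 1187 to 1535.

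Sites called lower in heart than lung (697) were 250 with 20 reads in every library, when 390 of the selected sites were tested, and 531 to 636 without 1 library. Over all sites tested, 390 of 27220 were called lower in heart with 20 reads, and 1201 to 1861 without 1 library. Sites called lower in heart than liver (737) were 155 with 20 reads, of 231 tested, and 347 to 683 without 1 library, the lowest without liver of horse 1. Over all sites tested, 354 of 15611 were called lower in heart with 20 reads, and 933 to 3364 without 1 library. When horse was added as a block, the moderated test gave 0 calls in every comparison. edgeR with the block called 767, 746 and 0 for lung against heart, heart against liver and lung against liver. In the same order, the moderated block fit gave an unadjusted p under 0.05 at 1117, 1085 and 54 of the selected sites. The unadjusted counts were made at the selected sites only, without the share over all sites tested, and the selection used the same values. The lowest adjusted p in the whole table was 0.0189, 0.0600 and 0.0391 under the moderated block fit. Other settings kept these counts within 1.5 times, and lung against liver stayed at 0 in all. With all libraries its largest difference was 20.9 points, under the 25 required, since the selection holds lung and liver together. The selection used the same values, so nothing is read from these counts of calls. Paired by horse, the depth difference was 0.03 (exact sign flips, p = 0.375, smallest possible 0.125), and its p was 0.0762 to 0.317 without 1 library. In clusters B and E only 2 and 1 of the 5 CpGs had 15 reads in all libraries. The heart level over these CpGs was 36.02% and 40.02%, against 44.8% and 46.9% over all 5. Fewer CpGs were averaged, and the level of each CpG was the same. The other 21 of 23 cluster values moved by under 1 SD. In clusters G, H, I, J, M and N every selected CpG had 15 reads, so their values at that limit could not move. Of the 15 clusters, 7 had no CpG at 15 reads. Apart from the smaller number of sites, and of CpGs in B and E, at higher read limits, the cause of these changes was not tested.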
